A study of Arabidopsis thaliana with 6 samples.

Results

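The comparison is between jazD, an Arabidopsis thaliana line mutated in 10 of the JAZ genes, and Col-0, the wild type of the same ecotype, and it uses 4 of the 6 RNA-seq libraries of the study, 2 per genotype. All genes were compared, and the samples and gene lists were chosen with earlier results of these data known. The plants were 21 days old, grew on soil in long days with no treatment, and were harvested without roots. The study's methods speak of leaves rather than of shoots, and the labels were followed here. The other 2 libraries come from LNJ-OX, plants in the Col-0 background that overexpress the microProtein LITTLE NINJA and are stunted like jazD. They entered the same model only for its estimate of the spread and for tests of single genes against jazD. The labels do not say which JAZ genes are mutated, and counts per gene do not show whether a transcript of a mutated gene is functional. Nothing in the labels says whether replicates were separate pots or pools, so the p-values measure the spread between 2 libraries per genotype.

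Jasmonic acid is an oxygenated fatty acid hormone that plants make after wounding and attack. Its conjugate with isoleucine joins the F-box protein COI1 to JAZ proteins, which are then degraded. While they last, JAZ proteins bind MYC transcription factors and recruit the adaptor NINJA and the corepressor TOPLESS, so loss of JAZ proteins leaves their partners without this repression. One branch of the response works through MYC factors and serves defence against chewing insects, and another works with ethylene through EIN3 and ERF factors and serves defence against necrotrophic fungi.

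Libraries held 15003290 and 11878135 counts in Col-0 and 10164591 and 10218756 in jazD, and 21374 of the 32833 listed genes passed the filter on low counts and were tested. Levels are in CPM, the count of a gene relative to the scaled total of its library, for replicates 1 and 2 in that order, and differences as log2 fold changes of jazD against Col-0 with their standard errors (SE). CPM is not corrected for gene length, so levels are compared only between libraries. A gene was called at an edgeR adjusted p under 0.01 together with a log2 fold change above 1 in size. In jazD 94 genes were called higher (0.44% of those tested) and 144 lower (0.674%). With an adjusted p under 0.05 and no limit on the fold, the rule used for gene families and for the words rose and fell, 308 genes were higher (1.44%) and 574 lower (2.69%). The median log2 fold change of all genes tested was 0.007. Both jazD libraries lay above both Col-0 libraries for 19.5% of the genes tested and below both for 21.1%, so 2 libraries on either side of a gap are common and mean little for a single gene. These shares, and those of genes that rose or fell, are the background to the counts given below for gene lists. The 2 Col-0 libraries resembled each other less (Pearson r 0.952 over log2 CPM of all genes tested, a description across genes) than the 2 jazD libraries did (0.972). Calls were sensitive to single libraries. Without Col-0 replicate 1, 13 genes were called higher and 19 lower, and without jazD replicate 1 the counts were 41 and 19. They were 62 and 98 without Col-0 replicate 2, 35 and 22 without jazD replicate 2, and 186 and 387 or 198 and 394 without LNJ-OX replicate 1 or 2.

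**Figure D1:**
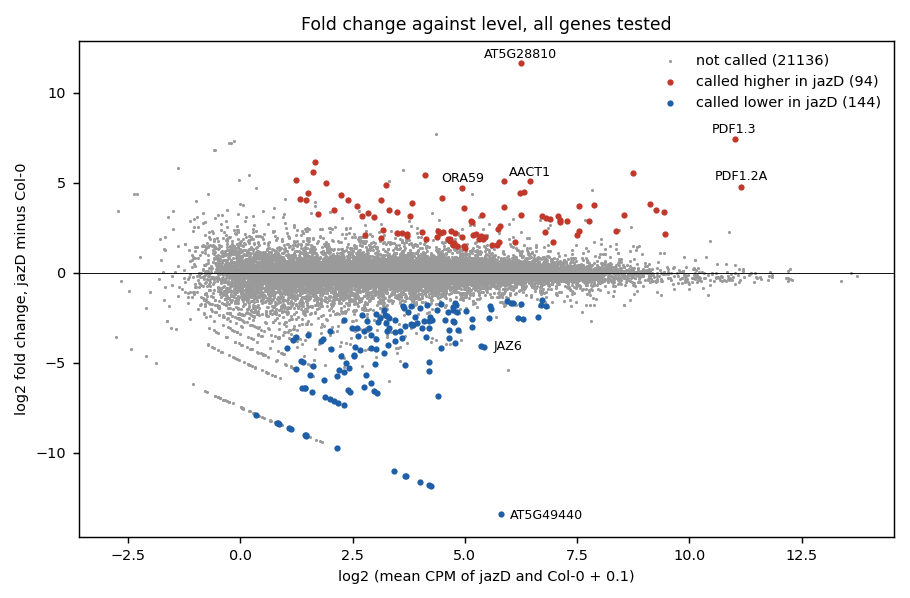
Each point is a gene tested, with the log2 of its mean CPM in jazD and Col-0 plus 0.1 on the x axis and its log2 fold change (jazD minus Col-0) on the y axis. The 94 genes called higher are red and the 144 called lower are blue. The streaks of points at the lower left are genes with no or almost no counts in jazD, whose fitted fold change depends on the small count the model adds.

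The JAZ genes were examined first, since they define the line. Of 13 JAZ genes, 12 were tested, 2 were called higher and 3 lower. JAZ6 (AT1G72450) stood at 94 and 68.7 CPM in Col-0 and at 5.24 and 4.05 in jazD, a log2 fold change of -4.13 (SE 0.29, adjusted p 4.28e-05). JAZ2 (AT1G74950) went from 38.2 and 26.7 CPM to 2.31 and 3.11, and JAZ1 (AT1G19180) from 29.1 and 20.1 CPM to 3.78 and 2.83. The jazD libraries of these genes lay far below both Col-0 libraries but not at 0. JAZ9 fell too (log2 fold change -1.23, SE 0.30, adjusted p 0.0447), from 365 and 254 CPM to 152 and 112. JAZ8, which lacks the usual degron, and JAZ10, a gene that jasmonate induces, were called higher. JAZ10 (AT5G13220) stood at 6.93 and 11 CPM in Col-0 and at 54 and 69.8 in jazD (log2 fold change 2.80, SE 0.34, adjusted p 0.00174). JAZ13 had the values 0.504 and 1.03 CPM against 2.1 and 5.56 and missed the threshold (adjusted p 0.0948). JAZ5 stood at 15.8 and 15.8 CPM in Col-0 and 10.4 and 9.24 in jazD (log2 fold change -0.68, adjusted p 0.252). JAZ7 stood at 1.13 and 0.657 against 0.21 and 0.189 (-2.14, adjusted p 0.267). Thus 6 of the 12 had both jazD libraries below both Col-0 libraries, as 21.1% of all genes tested did. The median log2 fold change of the 12 was -0.40. JAZ3, JAZ11 and JAZ12 had log2 fold changes between -0.12 and 0.08, and JAZ4 had at most 11 counts in any of these libraries and was not tested. Without either jazD library or without Col-0 replicate 1, the JAZ1 call was lost, with an adjusted p of up to 0.0273. The calls of JAZ2 and JAZ6 stood without any single library. The JAZ8 call needed all 4 libraries of the comparison, and that of JAZ10 was lost without Col-0 replicate 1 or jazD replicate 2. The fall of JAZ9 stood only without Col-0 replicate 2, and its adjusted p reached 0.401 without jazD replicate 2.

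The machinery around the JAZ proteins differed little. Of 10 genes of perception and of the MYC and JAM factors, only JAM1 (AT2G46510), a bHLH repressor of jasmonate responses, rose, from 24.3 and 15.7 CPM to 60.5 and 44.8 (log2 fold change 1.39, SE 0.28, adjusted p 0.0186), and it did not without Col-0 replicate 2 or either jazD library (adjusted p up to 0.188). The receptor gene COI1 had a log2 fold change of -0.12 (SE 0.25) and NINJA one of 0.19 (SE 0.22). MYC2, the main activator of the branch that JAZ proteins hold back, stood at 156 and 87.9 CPM in Col-0 and 251 and 184 in jazD, and its adjusted p was 0.238.

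Among genes that remove jasmonate, several rose. Of 9 tested genes of jasmonate turnover, 6 rose, 4 of them called, and the other 3 also had both jazD libraries above both Col-0 libraries. Their median log2 fold change was 1.95. Over all genes tested, 1.44% rose and 19.5% had both jazD libraries above both Col-0 libraries. JOX2 (AT5G05600) and JOX3 (AT3G55970) encode oxidases that hydroxylate jasmonic acid and so inactivate it. JOX2 stood at 25.3 and 29.8 CPM in Col-0 and at 291 and 192 in jazD (log2 fold change 3.13, SE 0.32, adjusted p 0.000712), and JOX3 at 19 and 23.1 against 193 and 185. CYP94B1 (AT5G63450), a cytochrome P450 that oxidises the active conjugate, went from 1.32 and 1.97 CPM to 16.4 and 19.5 (log2 fold change 3.46, SE 0.36, adjusted p 0.000712). ST2A (AT5G07010), a sulfotransferase acting on hydroxyjasmonate, stood at 9.64 and 7.42 against 34.9 and 31.3 CPM. JOX4 and ILL6, an amidohydrolase of the conjugate, rose by the looser rule, with log2 fold changes of 3.11 and 1.85. All 4 called genes were also higher than in LNJ-OX by the stricter rule, which 0.781% of the genes tested met in either direction. JOX2, for example, had a log2 fold change of 2.25 against LNJ-OX (adjusted p 0.00329). Both comparisons use the same jazD libraries, and 54 of the 94 genes called higher also differed from LNJ-OX by that rule. The LNJ-OX result is therefore not independent of the calls against Col-0 for these 4 genes. None of the 4 was called against Col-0 without Col-0 replicate 1, though all 4 still rose, and ST2A lost its call when any 1 library of the comparison was left out. JOX4 and ILL6 did not rise without Col-0 replicate 1 or jazD replicate 1.

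Of 16 tested genes of jasmonate synthesis, 3 rose and none fell, and the median log2 fold change was 0.36. LOX4 (AT1G72520), a lipoxygenase of the first step, was called, from 12.7 and 8.45 CPM to 44.8 and 32.9 (log2 fold change 1.87, SE 0.28, adjusted p 0.00519). LOX3, its close relative, and AOC1, an allene oxide cyclase, rose by 1.44 and 2.92 on the log2 scale. The 2 jazD libraries lay apart for several of these genes. LOX2, the lipoxygenase of leaf chloroplasts, stood at 708 and 600 CPM in Col-0 and at 3170 and 1170 in jazD (adjusted p 0.0879), and AOS at 176 and 145 against 619 and 265 (adjusted p 0.116). AOC1 and AOC2 are near copies, and reads that fit both could have been placed on either. Later steps moved little, as with OPR3 (log2 fold change 0.12, SE 0.29) and JAR1, which makes the isoleucine conjugate (-0.71, SE 0.23, adjusted p 0.142). Without jazD replicate 1 none of the synthesis genes rose, without either Col-0 library 1 did, and without jazD replicate 2 there were 4. The LOX4 call was lost when any 1 library of the comparison was left out.

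The ethylene branch held 6 of the 12 largest rises named by the rule. ORA59 (AT1G06160), an ERF factor where jasmonate and ethylene signals meet, stood at 2.14 and 2.44 CPM in Col-0 and at 56.2 and 61.9 in jazD. The log2 fold change was 4.69 (SE 0.28, adjusted p 1.94e-05), and against LNJ-OX, where it stood at 1.97 and 1.64 CPM, it was 5.02 (adjusted p 9.54e-06). Both jazD libraries were more than an order of magnitude above every other library. Of 15 tested ERF and EIN3 genes, 5 rose and none fell, and 12 had both jazD libraries above both Col-0 libraries. The shares over all genes tested were 1.44% that rose and 19.5% with both jazD libraries above both Col-0 libraries. ERF2 (AT5G47220), an activator that binds the GCC box, went from 8.82 and 7.51 CPM to 88.5 and 61.5 (log2 fold change 3.19, SE 0.36, adjusted p 0.00144). ERF1A (AT4G17500) went from 7.25 and 8.26 CPM to 38.7 and 32.3 and was called as well. ERF11 and ERF104 rose by the looser rule. EIN3 and EIL1, the factors that carry the ethylene signal, had log2 fold changes of 0.17 and 0.22. ERF1 was low in all libraries (0.63 and 0.376 CPM against 2.31 and 2.92) and missed the threshold (adjusted p 0.115). Of these calls only that of ORA59 stood without any single library, and the number that rose was 3 without Col-0 replicate 1 or either jazD library.

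The defence proteins of that branch included the defensins. Summed over the 20 genes listed, they took 767 and 1340 CPM in Col-0 and 13700 and 12000 in jazD. Of 18 tested, 9 rose, 6 of them called, none fell, and the median log2 fold change was 1.48. Over all genes tested, 1.44% rose and 0.44% were called higher. The plant defensins are small secreted antifungal peptides. PDF1.3 (AT2G26010) stood at 4.28 and 43.6 CPM in Col-0 and at 4380 and 3770 in jazD (log2 fold change 7.43, SE 0.96, adjusted p 0.00251). PDF1.2A (AT5G44420) went from 69.4 and 252 CPM to 4540 and 4240 (4.77, SE 0.57, adjusted p 0.00168), PDF1.2b (AT2G26020) from 8.44 and 27.9 to 816 and 862, and PDF1.2c (AT5G44430) from 47.1 and 197 to 1520 and 1020. In each of these genes Col-0 replicate 2 stood above replicate 1, by several fold, and both jazD libraries stood far above either. PDF1.2c lost its call without either jazD library or without Col-0 replicate 1 (adjusted p up to 0.0536), while PDF1.2A, PDF1.2b and PDF1.3 kept theirs. In LNJ-OX these 4 genes stood between 0.197 and 2.83 CPM, and each differed from jazD by the stricter rule. They are close copies of one another, and how reads that fit several copies were counted is not given, so the split between them is uncertain. PDF1.4 had a log2 fold change of 1.33 (adjusted p 0.195). AT3G59930, outside the list and annotated as a defensin-like protein, was called too, from 0.378 and 0.939 CPM to 21.6 and 14.9.

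AACT1 and DTX18 belong to the same branch but to another product. AACT1 (AT5G61160) joins hydroxycinnamic acids to agmatine, and DTX18 (AT3G23550) exports the resulting amides, which act against the late blight pathogen in Arabidopsis and potato. AACT1 went from 4.73 and 5.45 CPM to 199 and 141 (log2 fold change 5.07, SE 0.32, adjusted p 1.94e-05) and DTX18 from 7.69 and 5.92 to 157 and 149 (4.48, SE 0.27, adjusted p 1.94e-05). ADC1, an arginine decarboxylase that supplies agmatine, rose from 253 and 241 CPM to 552 and 599 (1.22, SE 0.27, adjusted p 0.0309), and its copy ADC2 had a log2 fold change of 0.91 (adjusted p 0.155). In LNJ-OX AACT1 was at 0.132 and 0.344 CPM, below Col-0. Among other proteins of the list, PR4 rose from 59.1 and 187 CPM to 865 and 560, and OSM34, an osmotin, rose by 1.28 on the log2 scale. The thionin THI2.1 and the chitinase CHI-B had adjusted p values of 0.237 and 0.214. Without jazD replicate 1, 5 of the defence proteins rose.

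**Figure D2:**
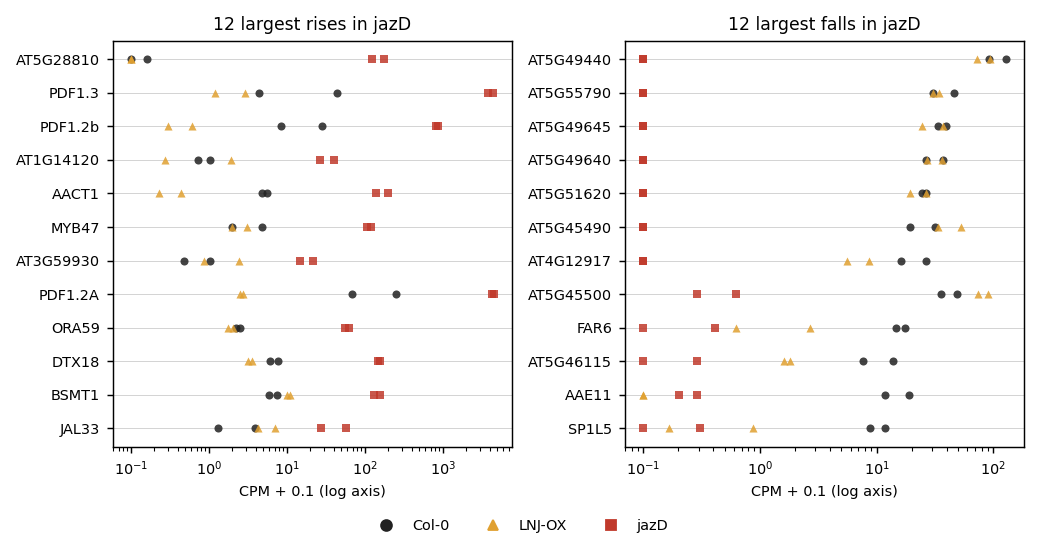
Points give the CPM plus 0.1 (log axis) of each library for the 12 genes with the largest rise (left) and the 12 with the largest fall (right), taken from called genes whose higher genotype averaged 10 CPM or more, with Col-0 as black circles, LNJ-OX as orange triangles and jazD as red squares. On the left ORA59, PDF1.2b, PDF1.3, AACT1 and DTX18 stand higher in jazD than in every other library, and on the right 7 genes had 0 counts in both jazD libraries.

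The letters upstream of these genes were read because MYC factors are known to bind the G-box CACGTG and its variant AACGTG, and ERF factors the GCC box GCCGCC. The 250 bases before each annotated gene start were taken from the TAIR10.1 annotation of RefSeq and searched on both strands. CACGTG, which is its own reverse complement, was held by 15 of the 91 genes called higher that have such a sequence (16.5%), by 4 of 138 called lower (2.9%), by 7.35% of all genes tested and by 6.49% of all upstream sequences of that length. GCCGCC or GGCGGC was held by 5 of 91 called higher (5.49%), 1 of 138 called lower (0.725%), 1.95% of genes tested and 1.87% of all upstream sequences. AACGTG or CACGTT was held by 9.89% of those called higher, 4.35% of those called lower, 7.4% of genes tested and 7.53% of all upstream sequences. These are descriptions with no test, a match is not a binding site, and AACGTG and CACGTG share letters but not a position. The GCC box genes among the largest rises were 3 defensin genes, AACT1 and ORA59 itself. Their stretches are shown 5′ to 3′ on the strand of the gene, with the motif in capitals:

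PDF1.2A (chr5:17907840-17907875, minus strand): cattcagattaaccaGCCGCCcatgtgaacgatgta

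PDF1.2b (chr2:11088965-11089000, plus strand): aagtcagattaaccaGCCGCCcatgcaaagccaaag

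AACT1 (chr5:24608569-24608604, plus strand): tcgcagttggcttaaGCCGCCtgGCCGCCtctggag

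AT3G59930 (chr3:22140321-22140354, minus strand): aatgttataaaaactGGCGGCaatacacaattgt

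ORA59 (chr1:1882662-1882733, plus strand): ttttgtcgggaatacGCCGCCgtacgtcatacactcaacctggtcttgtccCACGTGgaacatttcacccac

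The box lies further from the annotated start in PDF1.2A (first base at -222) than in PDF1.2b (-143). AACT1 holds it at 2 positions, -21 and -13, and ORA59 holds a GCC box at -230 and a G-box at -194. G-boxes close to the start were also found in genes of other groups, and 4 are shown to set beside their values:

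ERF2 (chr5:19172975-19173010, minus strand): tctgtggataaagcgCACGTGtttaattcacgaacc

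JAZ8 (chr1:10596327-10596351, plus strand): gaaaaaaacattttcCACGTGagag

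MBP1 (chr1:19352876-19352911, minus strand): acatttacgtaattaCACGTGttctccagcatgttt

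NAI2 (chr3:5402689-5402782, minus strand): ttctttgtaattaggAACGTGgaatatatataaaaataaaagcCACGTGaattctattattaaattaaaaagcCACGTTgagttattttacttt

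MBP1 and NAI2 are described below with the wound response and the ER body genes. A G-box also stood upstream of JAZ2, which was called lower, and of CYP83A1, PAL4 and IAA19, which fell. The GCC box, read as GGCGGC, stood upstream of IRX9, which was called lower.

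In the MYC branch, 8 of 17 tested wound response genes rose, 2 of them called, none fell, and the median log2 fold change was 1.44. The shares over all genes tested were 1.44% that rose and 0.44% called higher. CLH1 (AT1G19670), a chlorophyllase, went from 280 and 235 CPM to 1290 and 1000 (log2 fold change 2.16, SE 0.32, adjusted p 0.00521), and MBP1 (AT1G52040), a lectin that binds myrosinase, from 66.2 and 79.4 to 811 and 540 (3.21, SE 0.35, adjusted p 0.0011). NATA1, which acetylates ornithine, rose from 37 and 58.1 CPM to 445 and 275, CORI3, a cystine lyase, from 138 and 85.8 to 666 and 499, and BGLU18, a β-glucosidase, from 390 and 915 to 3920 and 2270. ANAC055 and ANAC072, NAC factors downstream of MYC2, rose as well, ANAC055 by 1.97 on the log2 scale, and PLP2, a lipid acyl hydrolase, by 2.69. The best known reporters of this branch were not past the threshold. VSP2 stood at 212 and 289 CPM in Col-0 and at 857 and 473 in jazD (adjusted p 0.0736), and VSP1 at 225 and 536 against 663 and 396 (adjusted p 0.731). WSCP, a protease inhibitor of flowers, had the values 2.27 and 17.9 CPM against 0.524 and 1.04 (adjusted p 0.0847). The number that rose was 2 without jazD replicate 1, 5 without jazD replicate 2, and 3 and 4 without Col-0 replicates 1 and 2. The CLH1 call was lost when any 1 library of the comparison was left out, and that of MBP1 without Col-0 replicate 1.

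The ER body genes formed a further group. ER bodies are endoplasmic reticulum bodies of crucifers that store β-glucosidases, which meet their substrates and their lectin partners when a cell is broken. In leaves they form after wounding or jasmonate. The list of 19 genes was written after the values had been seen, so its counts are a description. Of 18 tested, 13 rose, 9 of them called, and 16 had both jazD libraries above both Col-0 libraries. Over all genes tested, 1.44% rose and 19.5% had both jazD libraries above both Col-0 libraries. NAI1 (AT2G22770), the bHLH factor that controls ER body genes, stood at 0.441 and 1.69 CPM in Col-0 and at 15.8 and 16.9 in jazD (log2 fold change 4.02, SE 0.52, adjusted p 0.00235). NAI2 (AT3G15950), which forms the bodies, went from 3.47 and 6.39 CPM to 54.4 and 61.6 (3.58, SE 0.37, adjusted p 0.000712), and its relative AT1G52410 from 88.8 and 133 to 637 and 465. The membrane protein genes MEB1 and MEB2 rose by 1.87 and 1.74 on the log2 scale.

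Among the stored enzymes, PYK10 (AT3G09260), the main β-glucosidase of root ER bodies, stood at 8.63 and 21.1 CPM in Col-0 and at 99.2 and 173 in jazD (log2 fold change 3.21, SE 0.46, adjusted p 0.00458). PYK10 was also the single tested gene of the 10 root markers. The other 9, among them RHD6, PRP3 and CASP1, had at most 7 counts in any Col-0 or jazD library. Partners of PYK10 rose too. PBP1 (AT3G16420), its binding lectin, went from 17.6 and 31 CPM to 188 and 210 (3.04, SE 0.36, adjusted p 0.0016), JAL33 from 1.2 and 3.76 to 27.4 and 57.6, and JAL34 from 8.63 and 8.36 to 66.3 and 56.3. JAL22, JAL35 and the lipase AT1G54010 rose too. GLL22, a lipase of the same family, had a log2 fold change of 0.27 (SE 0.39) and BGLU19 one of -0.21 (SE 0.65). Without Col-0 replicate 1 the number that rose was 8 and none was called, and without jazD replicate 1 the numbers were 9 and 6. Without jazD replicate 2, 10 rose and 4 were called. Lectins outside this list, named after their values were seen, included AT1G52000, at 111 and 86.9 CPM against 1290 and 940 (adjusted p 0.0005), and the legume lectin AT3G15356, at 18.3 and 48 against 611 and 265.

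No gene of the salicylic acid list passed the looser rule. Salicylic acid serves defence against biotrophic pathogens and often opposes jasmonate. Of 22 tested, 14 had a positive log2 fold change, with a median of 0.28. ICS1, which starts its synthesis, stood at 19.2 and 24.3 CPM in Col-0 and 30.6 and 25.1 in jazD (log2 fold change 0.36, SE 0.24), and the marker PR1 at 69.7 and 172 against 227 and 136 (0.59, SE 0.53). In LNJ-OX ICS1 stood at 137 and 132 CPM, and jazD was lower than LNJ-OX by 2.27 on the log2 scale (SE 0.24, adjusted p 0.000814). BSMT1 (AT3G11480), which methylates salicylic and benzoic acid to volatile esters, was among the largest rises, from 7.43 and 5.82 CPM to 131 and 157 (4.43, SE 0.27, adjusted p 1.94e-05). Of the 114 tested genes annotated as methyltransferases of its superfamily, 4 were called higher, against 0.44% of all genes tested, and none lower. By the looser rule 2 fell, and the median log2 fold change was -0.036. Named after their values were seen, the 3 called higher besides BSMT1 were AT1G15125, from 33.6 and 19.5 CPM to 371 and 323, PXMT1 and OMTF3.

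Glucosinolates, the sulfur-containing defence compounds of crucifers, split by their amino acid precursor. Aliphatic glucosinolates come from methionine and indole glucosinolates from tryptophan. All 23 tested aliphatic genes had a negative log2 fold change, 22 had both jazD libraries below both Col-0 libraries, 12 fell by the looser rule and none by the stricter one, and the median was -1.09. Of 18 tested indole genes 6 rose and none fell, with a median of 0.48. Over all genes tested, 1.44% rose, 2.69% fell and 21.1% had both jazD libraries below both Col-0 libraries. The falls ran along the aliphatic pathway. MYB29, one of its MYB activators, went from 87 and 72.7 CPM to 34 and 38.8 (log2 fold change -1.13, SE 0.24, adjusted p 0.0263), while MYB28, the other main activator, stood at 179 and 105 against 81.3 and 94.8 (adjusted p 0.296). BCAT4, which starts the lengthening of the methionine side chain, went from 292 and 439 CPM to 109 and 104 (-1.78, SE 0.33, adjusted p 0.014). MAM3, IPMI1, IPMI2 and IMD1 of the same cycle fell by between 1.06 and 1.76 on the log2 scale. CYP79F1, which commits the chain-extended amino acid, went from 258 and 384 CPM to 117 and 69.8 (-1.78, SE 0.40, adjusted p 0.0322), and CYP83A1 from 495 and 717 to 233 and 182. GSTF11, GSTU20, the transporter BAT5 and FMOGS-OX3, which oxidises the side chain, fell too. The sulfotransferase SOT18 (-1.03) and MAM1 (-1.09) missed the threshold. No aliphatic gene fell without jazD replicate 1, none without jazD replicate 2, and 7 did without Col-0 replicate 2. The median stayed between -1.23 and -1.02 under all alternatives run. No aliphatic gene differed between jazD and LNJ-OX by the looser rule.

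**Figure D3:**
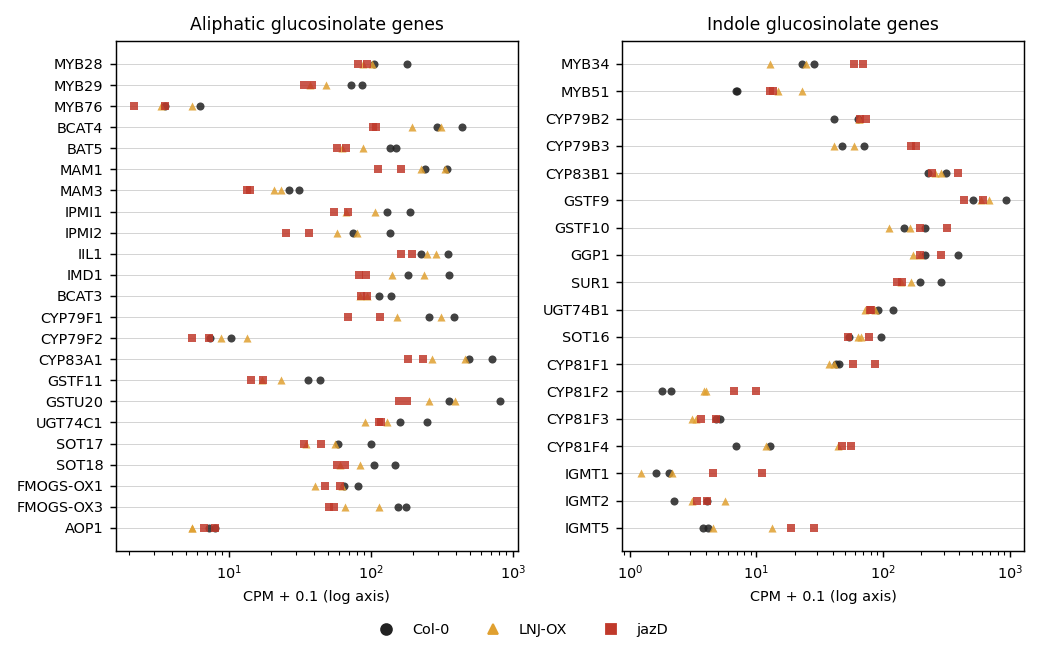
Points give the CPM plus 0.1 (log axis) of each library for tested genes of aliphatic (left) and indole (right) glucosinolate synthesis, with Col-0 as black circles, LNJ-OX as orange triangles and jazD as red squares. On the left the jazD squares lie to the left of the Col-0 circles in 22 of 23 genes, and on the right they lie to the right of them in 9 of 18.

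The indole genes that rose sit at the start and at the end of the pathway. MYB34, an activator, went from 28.2 and 22.6 CPM to 58.9 and 69.3 (log2 fold change 1.33, SE 0.31, adjusted p 0.0357), and CYP79B3, which converts tryptophan to its oxime, from 47.5 and 70.8 to 165 and 181 (1.55, SE 0.29, adjusted p 0.015). Both were also higher than in LNJ-OX (adjusted p 0.0139 and 0.0097). CYP81F2 and CYP81F4, which hydroxylate the indole ring, and the methyltransferases IGMT1 and IGMT5, which act after them, rose by between 2.13 and 2.61 on the log2 scale. IGMT1 and IGMT2 are close copies, and of the pair only IGMT1 rose. CYP83B1, SUR1, UGT74B1 and SOT16 of the shared core had log2 fold changes between -0.84 and 0.22. In tryptophan and camalexin synthesis 2 of 15 genes rose, PAI2 and CYP71A13, the latter from 4.66 and 3.85 CPM to 15.3 and 12.3. No indole gene rose without Col-0 replicate 1 or without jazD replicate 1, 1 did without Col-0 replicate 2 and 3 did without jazD replicate 2. Neither PAI2 nor CYP71A13 rose when any 1 library of the comparison was left out.

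Of 10 tested genes of glucosinolate breakdown and transport, only NSP1 rose. NSP1 (AT3G16400) directs hydrolysis towards nitriles in place of isothiocyanates. It stood at 36.2 and 39 CPM in Col-0 and at 265 and 279 in jazD (log2 fold change 2.85, SE 0.29, adjusted p 0.000712), and was also higher than in LNJ-OX (2.04, adjusted p 0.00363). Its call was lost without Col-0 replicate 1 (adjusted p 0.0121). The myrosinases TGG1 and TGG2 had log2 fold changes of 0.46 (SE 0.40) and 0.06 (SE 0.36). No gene of sulfate assimilation, which feeds both kinds of glucosinolate, passed the looser rule.

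Phenolic pathways differed less. For comparison, 2.69% of all genes tested fell and 1.44% rose. Of 17 phenylpropanoid and lignin genes 1 fell, PAL4, a phenylalanine ammonia-lyase, from 21.6 and 16.4 CPM to 8.07 and 6.13 (log2 fold change -1.43, SE 0.30, adjusted p 0.0252). Of 26 flavonoid genes 1 rose, the anthocyanin regulator MYB113, from 2.77 and 3.01 CPM to 15.6 and 12 (2.25, SE 0.40, adjusted p 0.012), and its relatives PAP1 and PAP2 had log2 fold changes of -0.43 and -0.12. CHS, the first enzyme of the pathway, stood at 587 and 653 CPM against 456 and 460 (-0.44, SE 0.33). For 15 of the 26 flavonoid genes both jazD libraries lay below both Col-0 libraries, as for 21.1% of all genes tested, but none fell. PAL4 did not fall without Col-0 replicate 1 or either jazD library (adjusted p up to 0.239), and MYB113 did not rise without Col-0 replicate 1 or jazD replicate 1 (up to 0.103).

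Terpenoid and volatile genes went both ways, 3 of 15 tested rising and 2 falling. TPS04 (AT1G61120), which makes the precursor of a homoterpene emitted after herbivory, rose from 12.9 and 5.73 CPM to 60.1 and 58.6 (log2 fold change 2.65, SE 0.47, adjusted p 0.0121). TPS21 and TPS14, terpene synthases of flowers, were called lower. TPS21 (AT5G23960) stood at 5.42 and 4.88 CPM in Col-0 and at 0.105 and 0 in jazD, and TPS14 (AT1G61680) at 28.1 and 20.6 against 2.73 and 4.05. In LNJ-OX TPS21 stood at 0 and 0.0861 CPM. THAD, of the thalianol gene cluster known from roots, had 0 counts in both Col-0 libraries and 1.26 and 1.7 CPM in jazD. Both falls stood without any single library, but neither gene was called without Col-0 replicate 1 or either jazD library. TPS04 did not rise without Col-0 replicate 2 or either jazD library, nor THAD without either Col-0 library or jazD replicate 1. Without jazD replicate 2 THAD did not pass the filter on low counts and was not tested.

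Growth genes were examined because jazD plants are small. Few of them passed a threshold. Of 31 cell cycle genes 1 fell and none rose, with a median log2 fold change of 0.05. Of all genes tested, 2.69% fell and 1.44% rose. Of 15 growth-regulating factors and partners none passed. The cell cycle gene that fell was SIM, a CDK inhibitor that promotes endoreduplication, from 19.6 and 21.1 CPM to 8.07 and 10.2 (log2 fold change -1.15, SE 0.25, adjusted p 0.0301). With any one of the 4 libraries of the comparison left out, or with library totals as scaling, no cell cycle gene passed, and the adjusted p of SIM reached 0.282. The replication genes MCM2 to MCM7 had log2 fold changes between 0.14 and 0.93, and the mitotic genes KNOLLE and CDKB2;1 -0.66 and -1.20, none past the threshold. All 22 genes of the photosynthesis list, which served as leaf markers, stayed between -0.49 and 0.28.

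Among cell wall loosening proteins, 3 of 16 expansins fell. EXPA4 (AT2G39700) was called, from 108 and 97.4 CPM to 28.7 and 35.5 (log2 fold change -1.68, SE 0.28, adjusted p 0.00951), EXPB3 went from 131 and 102 to 27.8 and 36.1 and EXPA15 from 70.5 and 37.7 to 14.8 and 21.4. EXPA1 and EXPA6, known from leaves, had log2 fold changes of 0.37 and -0.22. Neither EXPA4 nor the others fell without jazD replicate 1 or without jazD replicate 2, where the adjusted p of EXPA4 reached 0.126. Of 20 xyloglucan endotransglucosylase genes, XTH22 and XTH27 rose and XTH32 fell. None of the 3 changes stood without either jazD library, nor that of XTH32 without Col-0 replicate 2. XTH22, the touch gene TCH4, stood at 5.17 and 8.26 CPM in Col-0, at 21.1 and 18.9 in jazD and at 58.6 and 55.3 in LNJ-OX.

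Hormone genes of growth gave single changes. RGL3 (AT5G17490), a DELLA repressor of gibberellin responses, was called higher, from 3.72 and 3.47 CPM to 15.6 and 12.1 (log2 fold change 1.94, SE 0.32, adjusted p 0.00818), and its call needed each of the 4 libraries. RGL2 stood at 27 and 21.2 CPM against 9.96 and 11 (adjusted p 0.0539), and GAI and RGA had log2 fold changes of -0.09 and -0.10. GA2OX1, which inactivates gibberellins, fell from 2.58 and 1.13 CPM to 0 and 0.0943. Of 20 auxin and PIF genes, IAA19 and PRE1 fell, by 1.28 and 1.47 on the log2 scale, and GH3.3, which conjugates auxin, rose by 1.63. Of the 2 falls, 1 stood without Col-0 replicate 1 and none without any other library of the comparison. The rise of GH3.3 was lost when any of the 4 was left out (adjusted p up to 0.234), and the fall of GA2OX1 without Col-0 replicate 1 or either jazD library. Brassinosteroid genes such as DWF4, CPD and BRI1 had log2 fold changes between -0.52 and 0.23.

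Many genes of the secondary cell wall, the thickened and lignified wall of xylem and fibres, fell. The list of 36 genes was written after the values had been seen and is a description. All 36 had a negative log2 fold change, 35 had both jazD libraries below both Col-0 libraries, 25 fell and 19 were called, with a median of -2.98. Over all genes tested, 2.69% fell and 21.1% had both jazD libraries below both Col-0 libraries. The 3 cellulose synthases of this wall were called. CESA7 (AT5G17420) stood at 60.7 and 32.1 CPM in Col-0 and at 4.3 and 3.3 in jazD (log2 fold change -3.61, SE 0.41, adjusted p 0.00154), CESA4 at 80.5 and 41.3 against 10.5 and 9.99, and CESA8 at 61.3 and 28.9 against 3.98 and 6.03. Col-0 replicate 1 was above replicate 2 in each of them. The cellulose synthases of the primary wall, by contrast, had log2 fold changes between -0.23 and 0.02 but for CESA9 (-0.996, SE 0.50), and none of the 6 passed the looser rule.

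Genes of other steps of the same wall were among those that fell. Among xylan genes, IRX9 went from 17.6 and 12.3 CPM to 1.05 and 1.23 (-3.70, SE 0.45, adjusted p 0.00174), and ESK1 and TBL3, which acetylate xylan, were called as well. The laccases LAC4, LAC2 and LAC12, of a family that polymerises lignin, were called, as were the fasciclin-like proteins FLA11 and FLA12, the latter from 91 and 63.5 CPM to 2.62 and 6.6 (-4.05, SE 0.56, adjusted p 0.00342). MYB103 and MYB61, factors of the fibre and wall programme, were called, and the switch genes NST1 and NST3 fell, NST3 from 4.54 and 1.41 CPM to 0 counts in both jazD libraries. The other 11, among them IRX7, PARVUS and MYB58, missed the threshold. LNJ-OX was low in the same genes, with CESA7 at 4.94 and 9.55 CPM, and no gene of the list differed between jazD and LNJ-OX by the stricter rule. Summed over the list, Col-0 held 1210 and 755 CPM, LNJ-OX 191 and 288, and jazD 195 and 202. The number that fell was 9 without jazD replicate 1, 11 without jazD replicate 2 and 13 without Col-0 replicate 1. Of the 19 calls of the stricter rule none was left without Col-0 replicate 1 or jazD replicate 1 and 1 without jazD replicate 2, and 10 genes were called with library totals or limma-voom. In RNA from whole shoots, fewer cells of a type and less RNA per cell cannot be told apart.

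**Figure D4:**
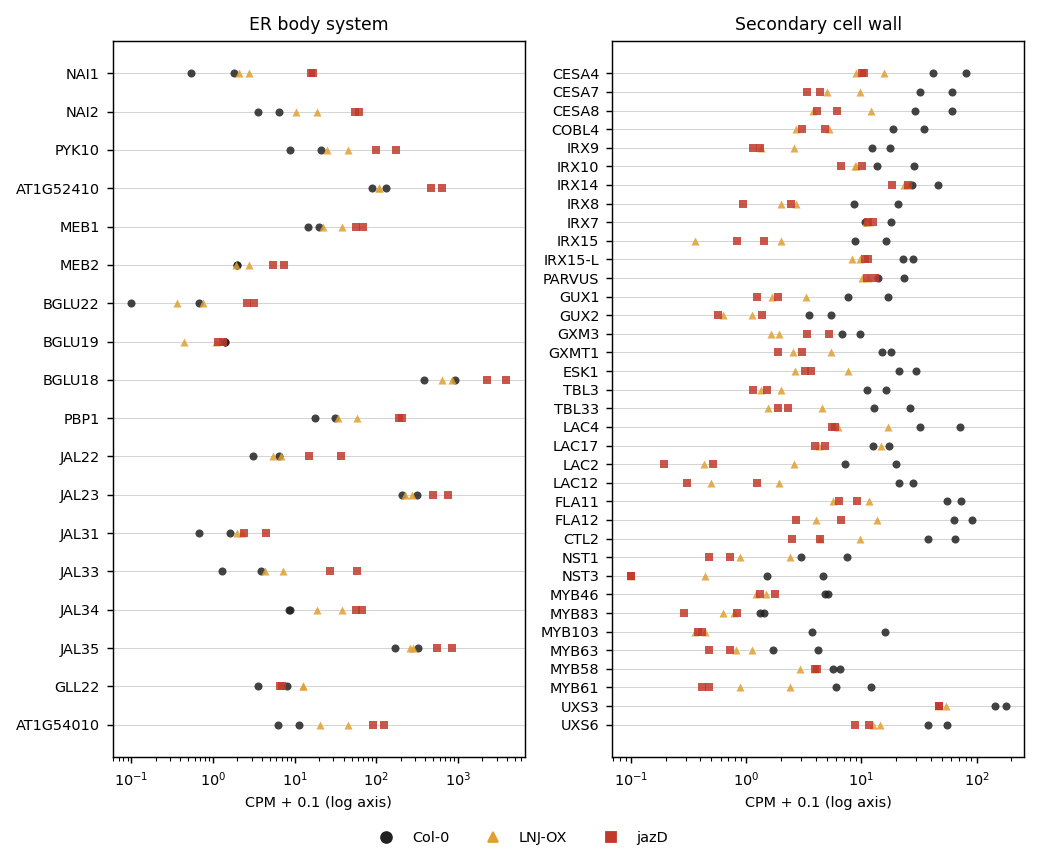
Points give the CPM plus 0.1 (log axis) of each library for tested genes of the ER body system (left) and the secondary cell wall (right), with Col-0 as black circles, LNJ-OX as orange triangles and jazD as red squares. On the left jazD stands above Col-0 in 16 of 18 genes, and on the right it stands below Col-0 in 35 of 36, with LNJ-OX low as well.

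Several markers of flowers and pollen fell too, and their part in the falls above was not tested. Of 14 pollen markers 9 fell, with a median log2 fold change of -3.16 (-2.92 with genes at or under 3 counts per jazD library set at their bound), and summed over the list Col-0 held 210 and 137 CPM, LNJ-OX 14.5 and 55.9 and jazD 21 and 34.9. AGP11, a pollen arabinogalactan protein, was called, from 17.1 and 13.5 CPM to 0.315 and 0.566. Of 15 tested floral organ markers 6 fell, among them SEP2, AP3 and PI, and 10 had both jazD libraries below both Col-0 libraries. Their median log2 fold change was -1.59. The sums were 162 and 176 CPM in Col-0, 57 and 87.6 in jazD and 83.2 and 161 in LNJ-OX. No tapetum marker passed, but 11 of the 12 tested had both jazD libraries below both Col-0 libraries, with a median of -1.22. Summed, they took 71.1 and 137 CPM in Col-0, 49.6 and 49.6 in jazD and 76.9 and 303 in LNJ-OX. Over all genes tested, 2.69% fell and 21.1% had both jazD libraries below both Col-0 libraries. AP3 and PI, which define petals and stamens, had counts in both jazD libraries. Of the MYB factors that act in stamens downstream of jasmonate, MYB57 fell from 11 and 11.1 CPM to 2.2 and 3.02 (log2 fold change -2.08, SE 0.38, adjusted p 0.014), and MYB21 and MYB24 had log2 fold changes of -0.22 and 0.33. Of 56 tested genes annotated as invertase or pectin methylesterase inhibitors, a family counted after the values had been seen, 9 were called lower and none higher. Of all genes tested, 0.674% were called lower. The list counts did not stand without single libraries. None of the pollen markers fell without Col-0 replicate 1 or without jazD replicate 1, 4 did without Col-0 replicate 2 and 2 without jazD replicate 2. No floral organ marker fell without either jazD library, 1 did without Col-0 replicate 1 and 2 without Col-0 replicate 2. With library totals as scaling 3 did, and the calls of AGP11 and SEP2 were lost when any 1 library of the comparison was left out.

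Of 13 genes that respond to carbon shortage 4 rose. All 13 had a positive log2 fold change, 12 had both jazD libraries above both Col-0 libraries, and the median was 1.25. Over all genes tested, 1.44% rose and 19.5% had both jazD libraries above both Col-0 libraries. ASN1 (AT3G47340), an asparagine synthetase of dark-grown and starved tissue, stood at 16.1 and 20.2 CPM in Col-0 and at 71.2 and 60.8 in jazD (log2 fold change 1.87, SE 0.25, adjusted p 0.00318), and PHI-1 (AT1G35140) at 1.95 and 3.19 against 13.2 and 8.77. SEN1, known from darkness and senescence, and TPS8, a trehalose phosphate synthase homologue, rose by the looser rule. In LNJ-OX ASN1 stood at 128 and 109 CPM, above jazD in both libraries. The ASN1 call was lost without either jazD library or without Col-0 replicate 1, with an adjusted p of up to 0.0408, and 1 gene of the list rose without jazD replicate 1. The PHI-1 call was lost when any 1 library of the comparison was left out. Of 10 rapid response genes only MYB44 rose, by 1.09 on the log2 scale, with an adjusted p of up to 0.267 when 1 library was left out.

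**Figure D5:**
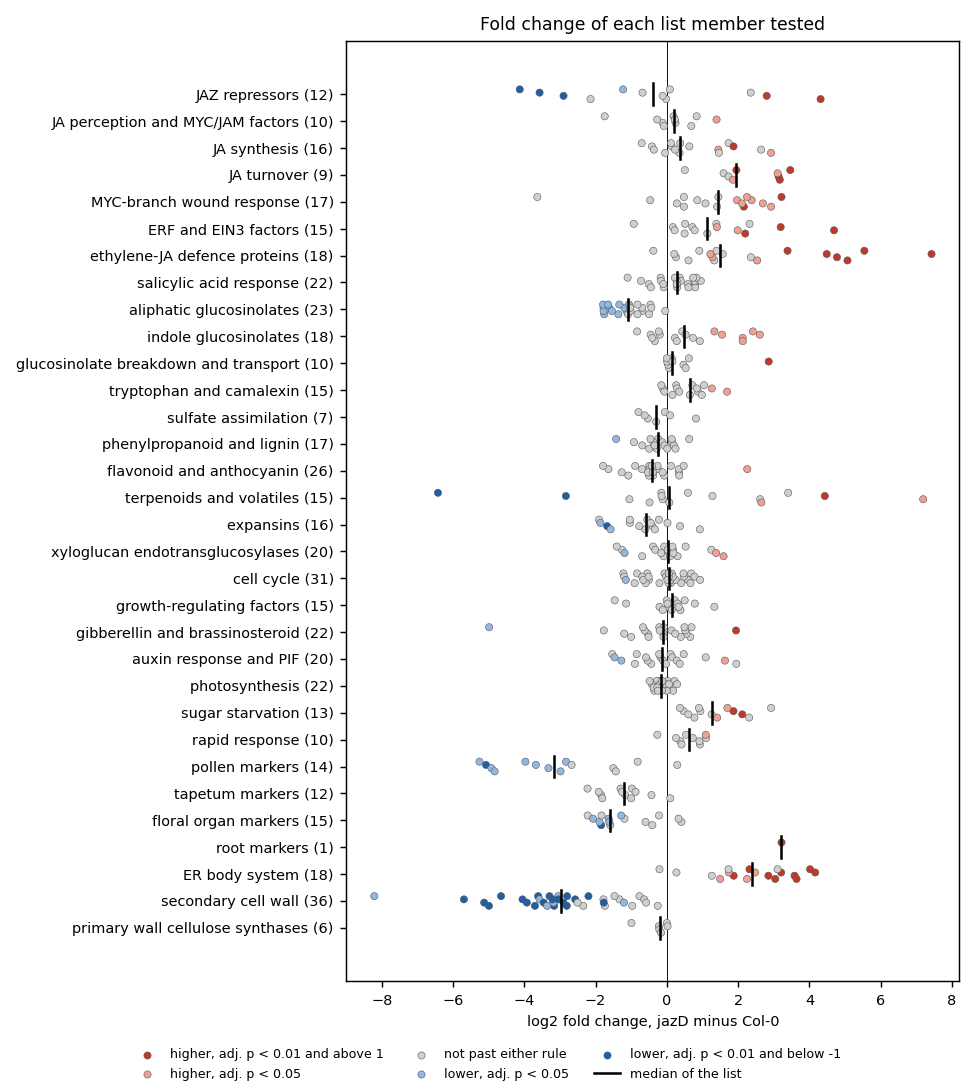
Each point is a tested member of a list, placed by its log2 fold change (jazD minus Col-0), with the number tested in brackets and a black bar at the list's median. Dark red and dark blue mark genes called higher and lower, light red and light blue those past the looser rule only. The turnover, defence and ER body lists lie to the right of 0, and the aliphatic glucosinolate, pollen and secondary wall lists to the left, while the photosynthesis and cell cycle lists centre on 0.

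Several called genes had no or almost no counts in one genotype. AT5G28810, annotated as an Ulp1 protease family gene, had 1 and 0 counts in Col-0, none in LNJ-OX, and 125 and 177 CPM in jazD, at least 535-fold higher against a floor of 3 counts per library. Of the genes called lower, 42 had at most 3 counts in each jazD library and 17 had none in either. AT5G49440, which encodes an uncharacterised protein, stood at 129 and 92.5 CPM in Col-0, at 93.5 and 72.5 CPM in the LNJ-OX libraries, and had no counts in jazD, at least 352-fold lower. AT5G55790, AT5G49645, AT5G49640, AT5G51620, AT5G45490 and the RNA gene AT4G12917 likewise had no counts in jazD, and each was lower there than in LNJ-OX by the stricter rule. AT5G45500, next to AT5G45490 in the order of genes, went from 35.3 and 48.7 CPM to 0.524 and 0.189. These floors cover counting error only.

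Many of these genes were neighbours. From AT5G44510 to AT5G56910, ends chosen after the values had been seen, 983 genes of chromosome 5 were tested, 29 were called lower and 8 higher. In the rest of the genome 115 of 20391 tested genes were called lower. Of the 17 called genes without counts in either jazD library, 8 lay in this run. PDF1.2A and PDF1.2c lie just before it in the order of genes. ERF2, THAD and IRX8, a gene of the secondary wall list that fell, lie within it. Without the run 81 genes were called higher and 105 lower. The remaining named falls had another pattern, in that LNJ-OX was low too. FAR6, a fatty acyl reductase of surface and suberin lipids, stood at 17.6 and 14.7 CPM in Col-0, at 0.315 and 0 in jazD and at 0.527 and 2.58 in LNJ-OX, at least 51.4-fold lower than Col-0. AAE11 and SP1L5, the latter of a family of microtubule proteins, were at least 48.8-fold and 32.5-fold lower. AT5G46115, which lies within the chromosome 5 run, was at least 33.8-fold lower. Of the named rises not yet described, MYB47 (AT1G18710), a MYB factor, went from 4.73 and 1.88 CPM to 120 and 108 (log2 fold change 5.06, SE 0.40, adjusted p 9.5e-05), and AT1G14120, annotated as a 2-oxoglutarate-dependent oxygenase, from 0.63 and 0.939 to 26.4 and 40.4 (5.43, SE 0.63, adjusted p 0.00154).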

How the data were processed

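The authors deposited 1 table of raw read counts per gene for each of 6 libraries, in whole numbers and without normalisation, and these counts were used as they stand. The submitters' processing notes name Trim Galore 0.6.3, HISAT2 2.1.0, HTSeq 0.9.1, limma 3.38.3 and the TAIR10 build, with no role or order. Strand setting and treatment of reads that fit several genes are not given in the sources used here. The authors' own comparison tables hold log2 fold changes, mean expression, test statistics and p-values and were not used.

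Genes were filtered with filterByExpr, scaled by TMM and tested with edgeR 4.0.16 (R 4.3.3) quasi-likelihood on all 6 libraries in one fit with genotype as the only term, after a test on simulated counts. P-values were adjusted by Benjamini-Hochberg over all 21374 genes tested, and are two-sided. The SE was derived from the log2 fold change and its F statistic. Total counts per library ranged from 10164591 to 15003290, and the common biological coefficient of variation was 0.232. Bounds for genes with at most 3 counts in each library of the lower genotype set them at 3 counts per library. Named genes were members of 29 lists, members of 3 lists added later, and the 12 largest rises and 12 largest falls. Those rises and falls were called, averaged 10 CPM or more in the higher genotype and had libraries that did not overlap. A few other genes, marked as such, were named after their values had been seen. List members were named where they passed a rule or showed a list's range. The samples and lists were chosen with earlier results of these data known, and 3 lists (ER body, secondary wall, primary wall) were added after the values had been seen. No set test was run, and lists are described by counts and medians.

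Symbols came from the TAIR10.1 annotation of RefSeq, whose table named 32548 of 32833 listed genes, and the other 285 were organelle genes. The upstream window was the 250 bases before the annotated gene start. The plan had named a table that also ran past the start, which was not used here. Alternatives were other scalings, filters and tools (DESeq2 1.42.0, limma-voom in limma 3.58.1), other thresholds, a replicate block, the 4 libraries alone and leaving out each library.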

Additional observations from a re-analysis of the deposited data

How the results depend on the processing

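The main counts were 94 genes called higher and 144 lower. Relative log expression factors (94 and 139), a filter at 1 CPM (94 and 140) and leaving out organelle genes (94 and 143) moved them little. With library totals as scaling, 71 were called higher and 72 lower, so 49.7% of calls were higher against 39.5% in the main analysis, and with limma-voom 78 and 65 (54.5%). More calls came from no filter (480 and 830), from DESeq2 (277 and 441, of which 94 and 140 were shared with the main calls), from the 4 libraries of Col-0 and jazD alone (182 and 396) and from an adjusted p under 0.05 with the same fold limit (301 and 569). Testing for a change beyond 1 on the log2 scale left 31 and 35. Leaving out 1 library at a time gave 13 to 198 genes called higher and 19 to 394 lower, and without the chromosome 5 run, an alternative chosen after seeing the data, 81 and 105 were called. None of the 151 named genes that passed a rule changed direction under an alternative that was run. Genes named although they passed neither rule were not followed in this way. Of 151 named genes, 56 were no longer past their threshold without Col-0 replicate 1, 41 without jazD replicate 1 and 42 without jazD replicate 2. The cause of these shifts was not tested. With 2 libraries per genotype, small changes and genes of few counts are beyond the reach of these data.

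The replicate numbers are shared between genotypes, but nothing in the labels says that a number marks a shared batch. Deviations of replicate 1 from its genotype mean correlated at r = 0.0587 between Col-0 and jazD over all genes tested. LNJ-OX was not part of that correlation, so it cannot settle whether libraries of the same number share variation. In the main analysis the numbers were not read as pairs. With the replicate block 241 genes were called higher and 413 lower, against 94 and 144 without it.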

Other observations

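Some further genes called higher fell outside the lists, and they and the families below were named after their values had been seen. UGT71C3 and UGT71B5, glycosyltransferases of small molecules, had log2 fold changes of 3.13 and 3.08, and UGT85A2, of another group of that family, 1.76. The TRAF-like family had 3 of 18 tested genes called higher, among them AT3G28220 with a log2 fold change of 3.83, against 0.44% of all genes tested. In that family 1 gene fell by the looser rule, and the median log2 fold change was 0.158. Of 9 mannose-binding lectin genes 3 were called higher, JAL33 and JAL34 of the ER body list and AT1G52000, and 1 fell by the looser rule. Of 5 legume lectin genes 2 were called higher, AT3G15356 (3.73) and AT3G16530 (2.89). Another legume lectin gene fell by the looser rule, and the median log2 fold change of that family was -0.164. MSRB6, a methionine sulfoxide reductase, had a log2 fold change of 2.97. In the other direction, 8 of 28 arabinogalactan protein genes, 7 of 57 pectin lyase-like genes and 5 of 12 genes of RALF-like peptides, which act in cell signalling, fell at an adjusted p under 0.05 from edgeR, as 2.69% of all genes tested did. These families were counted because of how their members moved, so the counts are descriptions. Some of their members, such as AGP11, also belong to lists described above.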
